A study of Mus musculus with 2 samples.

Results

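The ciliated cells of the neonatal mouse airway were taken as the cells of the authors' cluster 10 that held at least 10 unique molecular identifiers (UMIs, counted molecules) summed over Foxj1, Dynlrb2, 1110017D15Rik and Ccdc153. This rule found 342 cells of 22963 annotated cells in all, 146 of 9454 in the library of lungs treated with 5E1 and 196 of 13509 in the library of lungs treated with control IgG. Cluster 10 itself held 250 cells in the 5E1 library and 341 in the IgG library, so that 104 and 145 of its cells fell outside the rule. These cells are called the other cells of cluster 10 below, and genes of club cells, the secretory cells of the small airways, took 40.0% and 40.4% of their UMIs.

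Ciliated cells carry many motile cilia that beat together and move mucus out of the airways. Each cilium is built on a basal body, a modified centriole, and its shaft, the axoneme, is a ring of microtubule doublets around a central pair, with dynein arms as motors and radial spokes and nexin links as regulators. A ciliated cell arises from an airway progenitor when Notch signalling is low: Gmnc and Mcidas start the programme, Ccno and the deuterosome protein of Ccdc67 (also called Deup1) serve in making the many centrioles, and Foxj1 and the RFX factors switch on the genes of the axoneme.

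The 2 groups were pups that had received 5E1, an antibody against Hedgehog ligands, and pups that had received control IgG, each injected under the skin at postnatal day 3. All pups carried Gli1 CreERT2/+ and R26R tdTomato/+, a tamoxifen-inducible Cre at the Gli1 gene with a red reporter, and received tamoxifen at day 1, so the control pups carried the same alleles and drug. Lungs of 3 pups per condition were pooled at day 6, dissociated whole and loaded at about 20000 cells, which gave 1 library per condition. The reporter marks cells that expressed Gli1 when tamoxifen was given, and the series addresses the role of Hedgehog signalling in the formation of alveolar septa. The sex and strain of the pups were not given in the sources used here.

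With 1 pooled library per condition there is no replicate error, and no difference between 5E1 and IgG was tested. Intervals in the text are exact 95% intervals for counting error only, since neither the pups of a pool nor 2 preparations can be compared. Ciliated cells held 2949899 UMIs in the 5E1 library and 3677339 in the IgG library, with medians of 10871.5 and 13050.5 UMIs and 3465.5 and 3562 genes per cell. All annotated cells held 58890639 and 77436890 UMIs, with medians of 4636 and 4541 per cell. The 2 libraries shared 184 cell barcodes among annotated cells and 0 among the ciliated cells. A UMI of a Y-linked gene was found in 67 of the 146 ciliated cells of the 5E1 library, against 0 of the 196 of the IgG library, so the sex of the pups and the antibody cannot be told apart in what follows.

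The 4 genes of the rule were concentrated in cluster 10, which is a description since they chose the cells. Foxj1 (chr11:116330704-116335399, minus strand, GRCm38), the forkhead factor of motile ciliogenesis, stood at 201 CPM (counts per total of 1000000 UMIs) in cluster 10 of the 5E1 library and 183 CPM in that of the IgG library. The highest of the other 22 clusters reached 5.43 and 5.01 CPM. Dynlrb2 (chr8:116504974-116515915, plus strand), a dynein light chain, stood at 426 and 320 CPM in cluster 10, and 1110017D15Rik (chr4:41505009-41517333, minus strand) at 381 and 361 CPM. Ccdc153 (chr9:44240676-44247306, plus strand) stood at 183 and 179 CPM. Outside cluster 10, 10 or more UMIs of these genes were found in 3 of 9204 cells (0.0326%) of the 5E1 library and 5 of 13168 cells (0.0380%) of the IgG library. Among the cells of cluster 10 just inside the threshold, 6 and 16 had 10 to 12 such UMIs, and just outside it 6 and 13 had 7 to 9. The highest cell held 145 such UMIs in the 5E1 library and 142 in the IgG library.

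**Figure D1:**
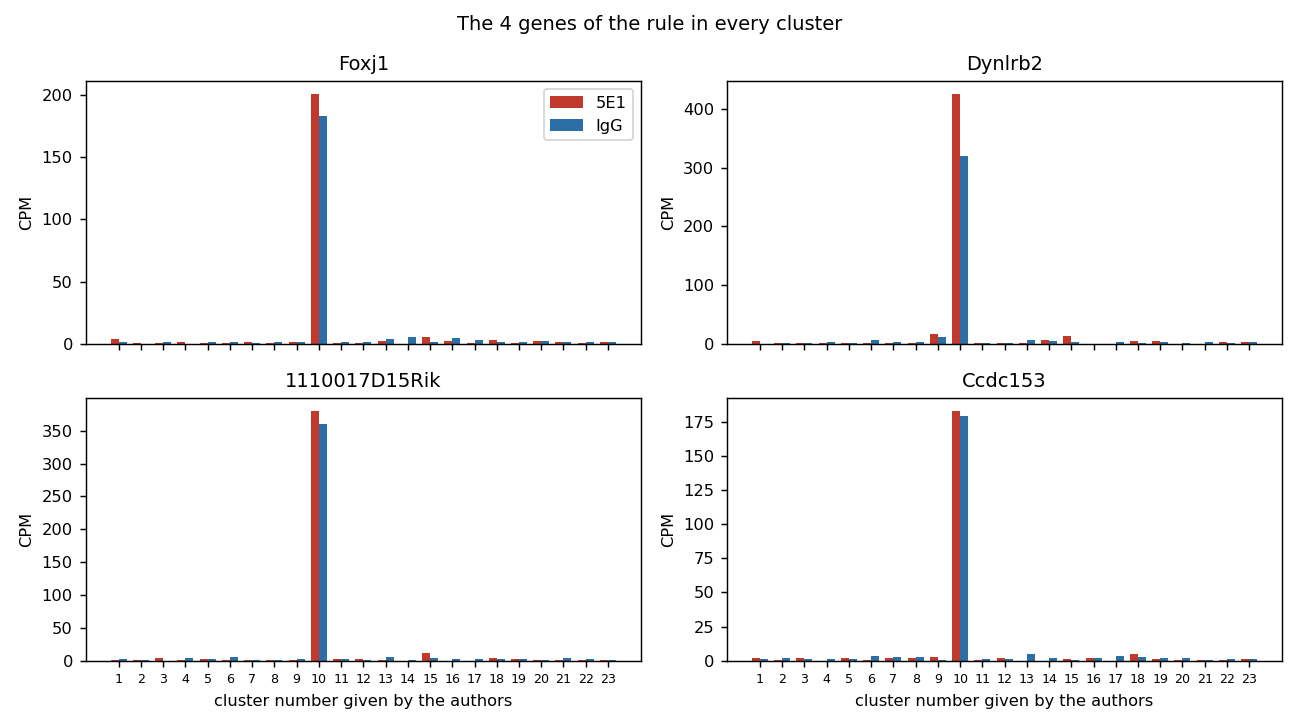
Level of the 4 genes of the rule (CPM of summed UMIs, vertical axis, linear) in each of the authors' 23 clusters (horizontal axis), one panel per gene, with the bar of the 5E1 library left of the bar of the IgG library. In every panel cluster 10 holds the high bars, with Dynlrb2 at 426 CPM in the 5E1 library and 320 CPM in the IgG library.

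Ranked by CPM over all other annotated cells, the leading 20 genes were headed by Fam81b and Ccdc81 and held 6 genes of the axoneme lists. These were Rsph4a of the radial spokes, Spag17 and Spag6l of the central pair, Armc4, which docks outer dynein arms, Tcte1 of the nexin link and 1700007K13Rik, a protein inside the doublets. Sntn of the ciliary tip, Meig1, Fam47e, Eno4 and Foxj1 itself were also among the 20. Of the axoneme genes with at least 20 UMIs in this comparison, 87 of 92 were at least 2-fold higher in the ciliated cells of the 5E1 library and 89 of 94 in those of the IgG library, with median log2 differences of 6.14 and 5.66. Over all genes, 15.1% and 14.2% were at least 2-fold higher, with medians of -0.48 and -0.54. The 20 epithelial identity genes were all higher, where 34.1% and 32% of all genes were, with medians of 3.06 and 3.27, and the mesenchymal markers were lower, with medians of -3.97 and -3.99. These counts describe a cluster chosen on such genes.

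Stretches of promoter are shown for 5 genes, 3 of the leading or structural cilium genes and the 2 early regulators that the results below turn on, because many cilium promoters share short motifs of the X-box, the sequence that RFX factors bind. They were read from the RefSeq promoter table (GRCm38.p6), they lie wholly before the annotated start of the gene, and capitals mark the motif GTTGCC. Only genes with a match could be shown. Of the leading genes, Meig1, Spag17, Spag6l, Fam216b and 3300002A11Rik had no match in the 250 bases before the start. Only 16 of the 28 genes looked up were in the promoter table. Foxj1, Fam81b, Ccdc81 and other leading genes were absent from it and could not be searched. Ccdc153 lies at chr9:44240493-44240562 (plus strand), Sntn at chr14:13670778-13670847 (plus strand), Eno4 at chr19:58943355-58943424 (plus strand), Mcidas at chr13:112993641-112993710 (plus strand) and Ccno at chr13:112987552-112987621 (plus strand).
Ccdc153: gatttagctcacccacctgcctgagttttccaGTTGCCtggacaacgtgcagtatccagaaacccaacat
Sntn: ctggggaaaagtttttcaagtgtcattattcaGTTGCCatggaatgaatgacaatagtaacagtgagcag
Eno4: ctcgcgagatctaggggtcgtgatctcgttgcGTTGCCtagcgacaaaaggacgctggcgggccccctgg
Mcidas: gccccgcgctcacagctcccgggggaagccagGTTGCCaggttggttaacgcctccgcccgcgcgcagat
Ccno: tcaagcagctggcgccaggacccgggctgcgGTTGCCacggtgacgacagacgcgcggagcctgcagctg

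Over promoters of 300 bases (250 before to 50 after the start, both strands), GTTGCC was present in 39 of 90 promoters (43.3%) of the axoneme genes, against 12.5% of all 32851 promoters in the table. The related motif GTTGCTA was present in 34 of 90 (37.8%), against 3.66% of all, and either motif in 58 of 90 (64.4%), against 15.4% of all. Genes of intraflagellar transport, the traffic along the axoneme, held either motif in 18 of 28 promoters (64.3%), and the club cell genes in 0 of 10. The list of multiciliation regulators, with Mcidas, held either motif in 6 of 20 (30%). That of centriole amplification, with Ccno, held it in 7 of 16 (43.8%). Of 2 forkhead motifs, TGTTTAC was present in 5 of 90 axoneme promoters (5.56%), against 3.65% of all, and TGTTTGT in 1 of 90 (1.11%), against 6.61% of all. Of the 101 axoneme genes listed, 80 matched the table, some with more than 1 start. A match is only a run of letters in this window.

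Ciliated cells made up 1.54% (1.31 to 1.81) of annotated cells in the 5E1 library and 1.45% (1.26 to 1.67) in the IgG library. The ratio of these shares was 1.06, with an interval of 0.853 to 1.33, so a difference was not detectable at this depth. With at least 20 UMIs of the rule genes the ratio was 1.32 (1.02 to 1.71), and without cells of very many UMIs or with markers of other types it was 1.41 (1.02 to 1.96). Within cluster 10 they were 58.4% (52.0 to 64.6) and 57.5% (52.0 to 62.8) of cells, a ratio of 1.02 (0.814 to 1.27). Shares of cells in a dissociated lung also move with every other cell type.

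The ciliated cells differed widely among themselves in Scgb1a1, the main secretory protein of club cells (chr19:9083636-9087958, minus strand). A cut at 5% of a cell's UMIs, chosen after its distribution was seen, divided them into 73 Scgb1a1-low cells in the 5E1 library and 81 in the IgG library, and 73 and 115 Scgb1a1-high cells. Few cells lay near the cut, with 3 and 3 between 2% and 5% and 4 and 5 between 5% and 10%. Scgb1a1 had a median of 0.340% and 0.464% of UMIs in the low cells and of 25.9% and 28.6% in the high cells. The other cells of cluster 10 had medians of 33.2% and 34.8%, and those of the other 22 clusters ran from 0.105% to 0.282% in the 5E1 library and from 0.162% to 0.433% in the IgG library. The high cells were thus close to the other cells of cluster 10 in this transcript, and the low cells were just above the level found in cells of every kind. The classes are ranges of 1 value and not types.

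**Figure D2:**
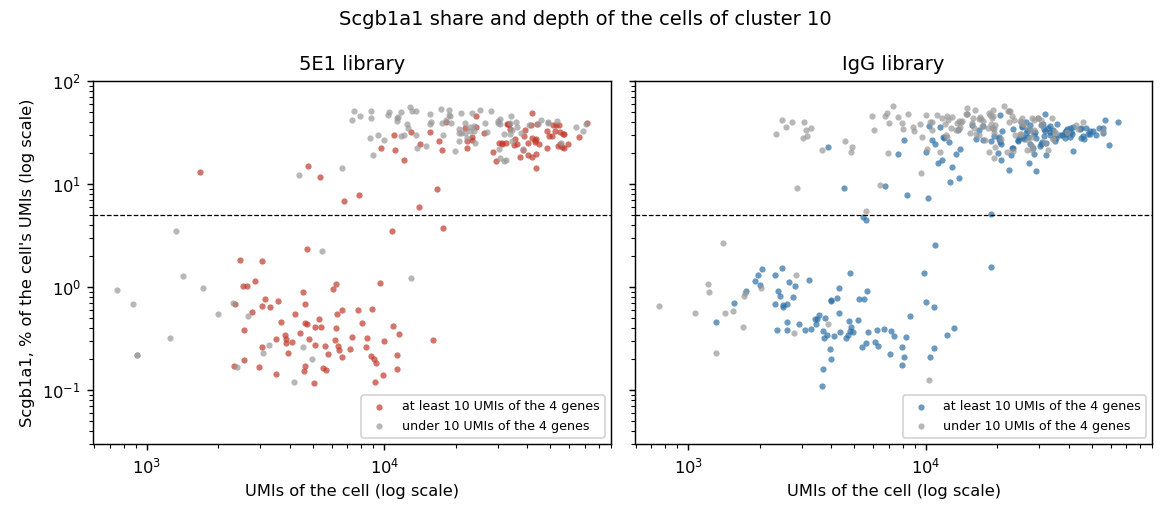
Share of each cell's UMIs that came from Scgb1a1 (percent, vertical log axis) against its UMIs (horizontal log axis) for the cells of cluster 10, with the 5E1 library in the left panel and the IgG library in the right one. Ciliated cells are coloured, other cells of the cluster grey, and the dashed line is the 5% cut; the ciliated cells fall into a cloud of few UMIs and little Scgb1a1 and a cloud of many UMIs and much Scgb1a1.

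Total UMIs went with this division. The low cells had medians of 5125 UMIs in the 5E1 library and 4211 in the IgG library, the high cells 35469 and 27518, and the other cells of cluster 10 17920 and 14958. The high cells therefore held 87.2% of all ciliated UMIs. Across cells of 1 library, which share that library and its free RNA, UMIs and the Scgb1a1 share had Spearman correlations of 0.73 and 0.78, given as a description. In the 5E1 library 50% of the ciliated cells were low and in the IgG library 41.3%. As a share of annotated cells the low cells were at 0.772% and 0.600%, a ratio of 1.29 (0.926 to 1.79), and the high cells at 0.772% and 0.851%, a ratio of 0.907 (0.667 to 1.23).

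Scgb1a1-low cells had more of their UMIs in cilium genes in both libraries, part of which the rule sets. A floor of 10 UMIs of the 4 genes asks for a larger cilium share in a cell of few UMIs, and across cells total UMIs and the share of the 4 genes had Spearman correlations of -0.81 and -0.85. In CPM, 86 of 86 axoneme genes of the 5E1 library and 85 of 85 of the IgG library were higher in low than in high cells, 84 and 84 of them at least 2-fold, with median log2 differences of 1.92 and 2.08. Over all genes, 83.7% and 84.3% were higher, 36.5% and 38% at least 2-fold, and the medians were 0.76 and 0.78. Scgb1a1 alone took medians of 25.9% and 28.6% of the UMIs of high cells, which leaves less CPM for every other gene there. By structure the medians were 1.94 and 2.05 for outer dynein arms, 1.90 and 1.93 for inner arms, 1.91 and 2.22 for radial spokes, 1.91 and 2.10 for the central pair and 2.03 and 2.20 for the nexin link. Intraflagellar transport followed at 1.72 and 1.86, with 29 of 29 genes higher in both libraries, and the BBSome and transition zone, the gate at the base of the cilium, at 1.40 and 1.51 with 27 of 27. Genes of centriole amplification stood at 0.57 and 1.16, below the median of all genes in the 5E1 library and above it in the IgG library, and the club cell genes at -3.30 and -2.50.

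**Figure D3:**
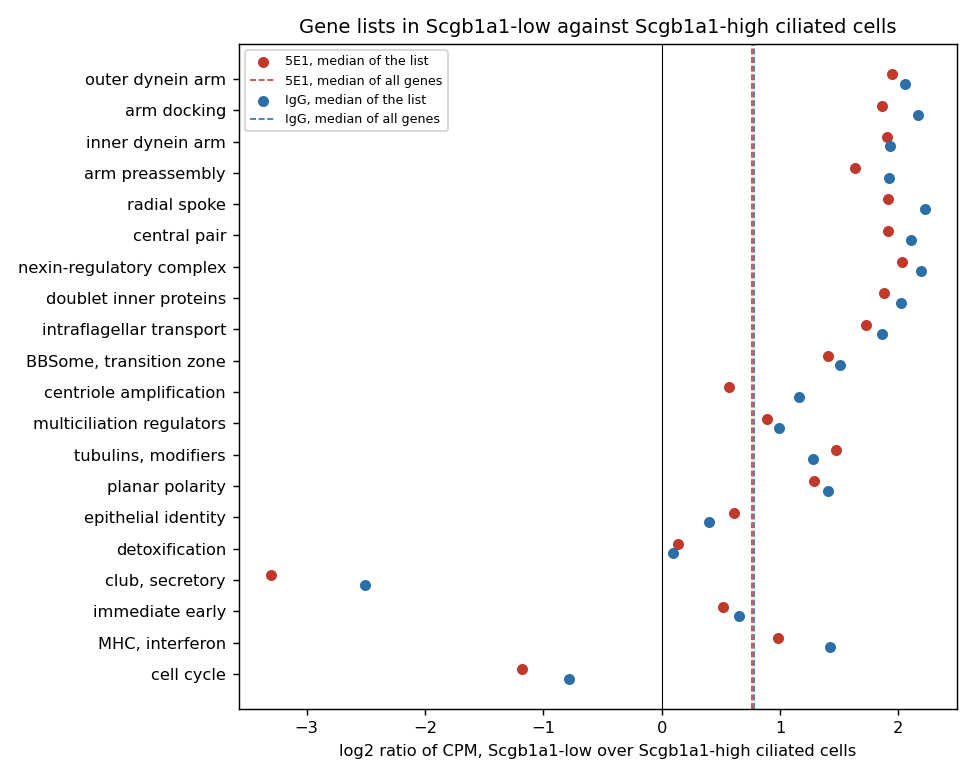
Median log2 ratio of CPM in Scgb1a1-low over Scgb1a1-high ciliated cells for each gene list (rows), with the 5E1 library above the IgG library in each row and dashed lines at the medians over all genes, 0.76 for 5E1 and 0.78 for IgG. Lists of the axoneme lie to the right of the dashed lines, between 1.86 and 2.22, and the club cell list lies at -3.30 in the 5E1 library and -2.50 in the IgG library.

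Counted per cell and not in CPM, several late cilium genes were nearly even between the classes. Tppp3, a tubulin polymerization protein abundant in ciliated cells, stood at 38.8 UMIs per low cell and 39.7 per high cell in the 5E1 library and at 25.7 and 23.9 in the IgG library. Sntn, at the ciliary tip, stood at 1.74 and 1.33 and at 1.15 and 0.870. Over the axoneme genes the median ratio of low over high per cell was 0.657 in the 5E1 library and 0.752 in the IgG library, while over all genes it was 0.290 and 0.299. The rule asks for 10 UMIs of cilium genes in either class, which bears on this comparison.

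Of the genes that begin the ciliated programme, Mcidas and Ccno took a larger share of UMIs in the high cells. Mcidas, the coactivator that starts multiciliation (chr13:112993845-113000394, plus strand), had 4 UMIs over the low cells of the 5E1 library and 0 over those of the IgG library. The high cells held 56 and 62 Mcidas UMIs, and the other cells of cluster 10 held 2 and 5. High cells thus held 96.7% of the Mcidas UMIs of ciliated cells, beside 87.2% of all UMIs. Ccno (chr13:112987802-112990777, plus strand), a cyclin needed for making the centrioles, had 25 and 6 UMIs in low cells and 225 and 218 in high cells, or 93.5% in high cells. Gmnc had 18 UMIs, all in high cells. These counts are small.

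Other early genes had shares in high cells near the 87.2% of all UMIs. That share counts Scgb1a1, which divided the classes and had 99.7% of its UMIs in high cells. It would be lower without that gene, so nearness to it does not show an even spread. Foxn4, a forkhead factor known from multiciliated cells of the frog, had 4 and 2 UMIs in low cells and 29 and 23 in high cells, or 89.7% in high cells. Ccdc67 had 26 and 20 UMIs in low cells and 181 and 128 in high cells, or 87.0%, and in CPM it was lower in low cells of the 5E1 library, at 59.3 against 72.1, and higher in those of the IgG library, at 48.6 against 39.2. Cdc20b, a neighbour of Ccno and Mcidas on chromosome 13, had 2 and 3 against 23 and 14 UMIs, or 88.1% in high cells. At least 10 UMIs over the 6 early genes (Gmnc, Mcidas, Foxn4, Cdc20b, Ccno and Ccdc67) were found in 1 of 73 low cells of the 5E1 library and 0 of 81 of the IgG library, where the exact interval reaches 4.45%. Among high cells they were found in 16 of 73 (21.9%, 13.1 to 33.1) and 17 of 115 (14.8%, 8.85 to 22.6). Among the other cells of cluster 10, at medians of 17920 and 14958 UMIs, they were found in 1 of 104 and 1 of 145. At least 1 UMI of them was found in 18 of 73 and 17 of 81 low cells, 54 of 73 and 57 of 115 high cells, and 11 of 104 and 31 of 145 other cells. Low cells had far fewer UMIs, with medians of 5125 and 4211 against 35469 and 27518 in high cells, so the counts of cells are given side by side without a comparison.

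A barcode with both ciliated and club transcripts can hold 1 cell with both or 2 cells, and no doublet caller was run. The values that bear on this were set side by side as the UMIs per high cell over the sum of the UMIs of 1 low cell and 1 other cell of cluster 10. For all UMIs this ratio was 1.31 in the 5E1 library and 1.35 in the IgG library. Tppp3 stood at 0.983 and 0.873, Sntn at 0.747 and 0.727 and Tekt1, a filament protein of the doublets, at 1.63 and 1.19. Low cells had to hold UMIs of the rule genes, other cells had to lack them and Scgb1a1 divided the classes, so the ratios of cilium and club genes are partly set by the choice of cells. Over the axoneme genes the median was 1.34 and 1.16, beside 1.35 and 1.32 over all genes. Of the axoneme genes 80 of 86 and 62 of 85 were above the sum, where 8076 of 9230 and 8640 of 9936 of all genes were.

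Early genes stood higher against it. Mcidas stood at 10.4 times the sum in the 5E1 library and 15.6 times in the IgG library, Ccno at 5.98 and 6.59 times, Ccdc67 at 6.44 and 3.68 times, and Foxj1 at 2.74 and 2.06 times. On few UMIs, Foxn4 stood at 7.25 and 6.33 times, Cdc20b at 11.5 and 3.29 times and Gmnc at 3.80 and 3.15 times. Agr2, a secretory pathway disulphide isomerase, stood at 6.18 and 3.26 times. For the 16 genes of centriole amplification the median was 2.64 and 1.72, with all 16 above the sum in both libraries, where 8076 of 9230 and 8640 of 9936 of all genes were. How many of the barcodes hold 2 cells was not tested.

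**Figure D4:**
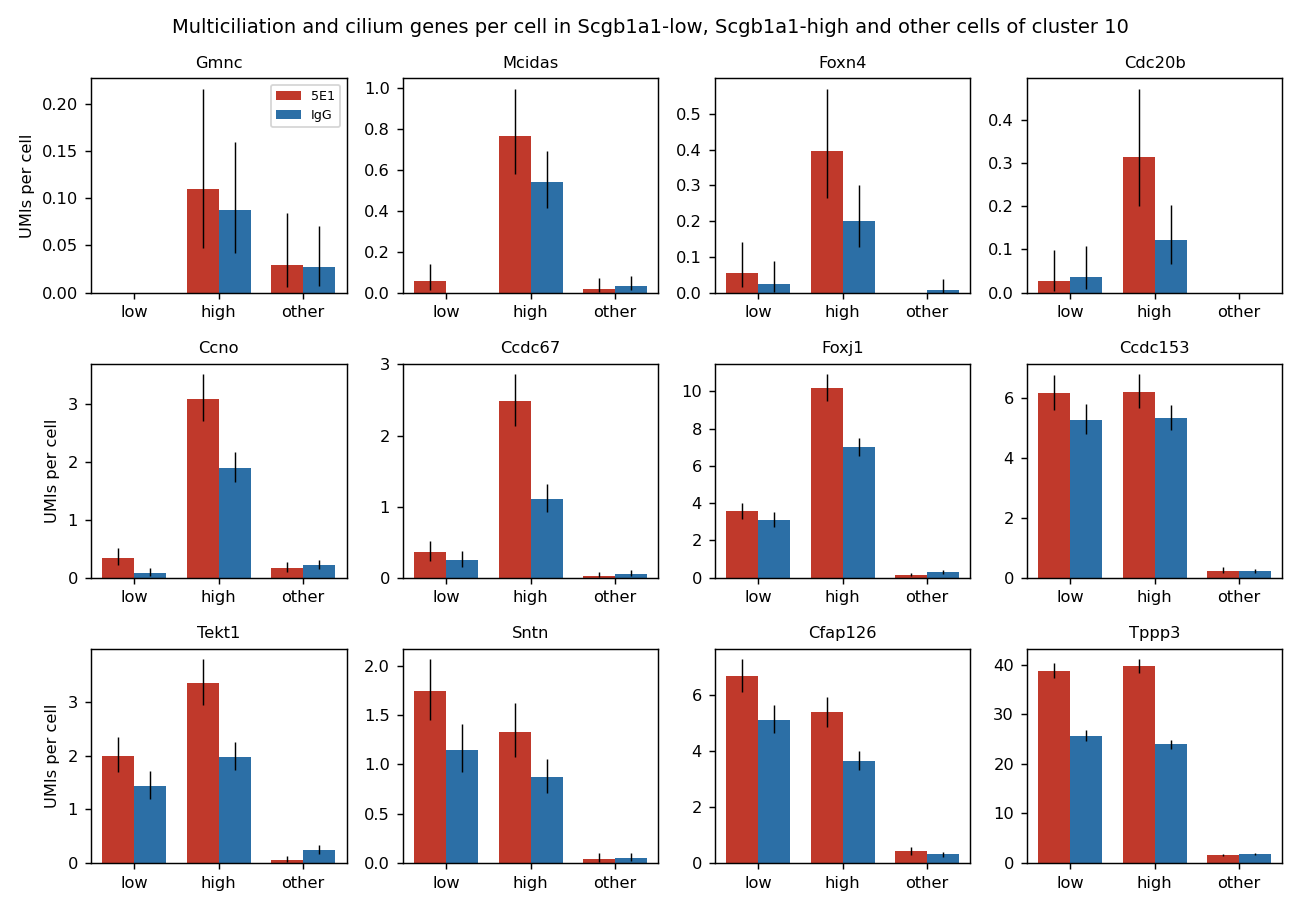
UMIs per cell (vertical axis, linear, scaled per panel) of early regulators and of structural cilium genes (panels) in Scgb1a1-low ciliated cells, Scgb1a1-high ciliated cells and the other cells of cluster 10, with the 5E1 library left of the IgG library; error bars are exact 95% Poisson intervals for counting error only. Mcidas, Foxn4, Cdc20b, Ccno and Ccdc67 are highest in the high cells, whereas Tppp3 stands at 38.8 and 39.7 UMIs per low and high cell of the 5E1 library.

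Low cells kept a part of the secretory and detoxifying profile. Cyp2f2, the cytochrome P450 of club cells, stood at 862 CPM in low cells of the 5E1 library and 981 CPM in those of the IgG library, beside 2483 and 2480 CPM in high cells. In cluster 4, where the immune markers summed to 8016 and 7822 CPM and which should lack the gene, Cyp2f2 stood at 11.5 and 21.9 CPM. Aldh1a1, a retinaldehyde dehydrogenase, stood at 898 and 886 CPM in low cells and at 836 and 829 CPM in high cells, against 4.31 and 5.83 CPM in cluster 4. Sec14l3, a lipid transfer protein, was higher in low cells, at 1423 and 1384 CPM against 532 and 558 CPM. These genes were above the background of free RNA in both classes.

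Other club cell genes were far lower in the low cells. Scgb3a1, a secretoglobin of the larger airways, stood at 11.4 and 41.3 CPM in low cells and at 366 and 306 CPM in high cells. Elf5, an epithelial ETS factor, had 1 UMI in the low cells of each library, against 124 and 140 UMIs in the high cells. Nrarp, a target and inhibitor of Notch signalling, likewise had 1 UMI in the low cells of each library, against 80 and 108 UMIs. Scnn1b, a subunit of the epithelial sodium channel, stood at 4.56 and 7.29 CPM in low cells and at 100 and 88.8 CPM in high cells. Scnn1a, another subunit of that channel, did not follow it, with 324 and 289 CPM in low cells and 236 and 198 CPM in high cells.

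Cyp2s1 and Aldh3b1 went with the cilium genes. Cyp2s1, a cytochrome P450, stood at 1003 and 860 CPM in low cells, 262 and 240 CPM in high cells and 39.3 and 46.3 CPM in the other cells of cluster 10. Aldh3b1, an aldehyde dehydrogenase, stood at 399 and 393 CPM in low cells and at 80.4 and 64.0 CPM in high cells. Cd24a, a surface protein used to sort ciliated cells, stood at 1934 and 1549 CPM against 533 and 446 CPM. Prom1, a membrane protein of cellular protrusions, stood at 125 and 194 CPM against 42.2 and 49.6 CPM. Of these, Cd24a alone was high in cluster 4, at 474 and 579 CPM.

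Even the high cells stood apart from the other cells of cluster 10 in their cilium genes. Of the axoneme genes, 84 of 84 in the 5E1 library and 84 of 85 in the IgG library were at least 2-fold higher in high cells, with medians of 3.53 and 2.57, against 21.2% and 15.9% of all genes and medians of 0.42 and 0.33. Centriole amplification stood at 2.39 and 1.71, and intraflagellar transport at 1.92 and 1.38. The rule chose these cells on 4 such genes, so this is a description. Ranked against the other cells of cluster 10, the ciliated cells as a whole were lowest in Scgb3a1, Bpifb1, Reg3g and Retnla, genes of secreted airway proteins, and in Vwf.

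Markers of other cell types were also present. Those of alveolar type 2 cells summed to 4805 and 5028 CPM, with 1642 and 3742 CPM in low cells, 5358 and 5191 CPM in high cells, 7519 and 7467 CPM in the other cells of cluster 10 and 1129 and 1662 CPM in cluster 4. Those of type 1 cells summed to 1280 and 1081 CPM, against 143 and 173 CPM in cluster 4. Of the 5 basal cell markers only Krt15 had a UMI in ciliated cells, and the list summed to 36.6 CPM in the 5E1 library and 91.4 CPM in the IgG library. Immune markers summed to 383 and 455 CPM, with 1384 and 1289 CPM in low cells and 208 and 349 CPM in high cells. Mesenchymal markers summed to 741 and 776 CPM, with 3448 and 991 CPM in low cells and 268 and 749 CPM in high cells, so that they were highest in the low cells of the 5E1 library. Cluster 4 held 971 and 2088 CPM of them. Markers of leukocytes, endothelium and mesenchyme took 0.5% or more of UMIs in 7 of 73 and 8 of 81 low cells, against 0 of 73 and 5 of 115 high cells. Without the cells at 0.5% or more, the median log2 ratio of the axoneme genes, 5E1 over IgG, was 0.217, beside 0.225 with them. The ratio of the shares of ciliated cells was then 1.09, beside 1.06. A filter at 10 or more UMIs of these markers or over 3 times the median UMIs gave an axoneme median of -0.0413. The part of these markers in the differences between low and high cells was not tested.

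Between 5E1 and IgG, cilium genes were slightly higher in the 5E1 library over all ciliated cells, and this did not hold within the Scgb1a1-low cells. Of 92 axoneme genes, 77 were higher and 15 lower in 5E1, with a median log2 ratio of 0.22, where 57.7% of all genes were higher and the median of all 11264 genes was 0.05. In low cells 37 of 84 axoneme genes were higher and 47 lower, where 51.8% of all genes were higher, with a median of -0.04 beside 0.02 for all genes. In high cells 67 of 88 were higher, where 53.7% of all genes were, with a median of 0.19 beside 0.03. In the other cells of cluster 10, 2 of 35 were higher, where 43.4% of all genes were, with a median of -0.72. Those cells were chosen as holding under 10 UMIs of the 4 rule genes, which bears on this value. Such UMIs left in them stood at 58.2 CPM in the 5E1 library and 94.3 CPM in the IgG library. Over all other annotated cells the axoneme median was -0.17. Low cells made up 50% of the ciliated cells of the 5E1 library and 41.3% of those of the IgG library, and their part in the summed value was not tested. With the 5E1 library limited to the 40 ciliated cells that had Xist UMIs and lacked Y-linked ones, the axoneme median was -0.22. Of these cells 40% were Scgb1a1-low, beside 40.1% of the IgG cells defined in that way, and the medians were 17116.5 and 13528.5 UMIs.

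Each group of structures lay above the median of all genes over all ciliated cells. The medians over all ciliated cells were 0.37 for outer dynein arms, 0.19 for their docking, 0.12 for inner arms, 0.24 for radial spokes, 0.15 for the central pair, 0.20 for the nexin link and 0.36 for proteins inside the doublets. Preassembly factors of the dynein arms stood at 0.22, intraflagellar transport at 0.25 with 25 of 31 genes higher, and centriole amplification at 0.27 with 15 of 18. Within low cells outer arms were at -0.16, intraflagellar transport at 0.03 and centriole amplification at -0.04. Within high cells these 3 groups were at 0.24, 0.12 and 0.38.

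**Figure D5:**
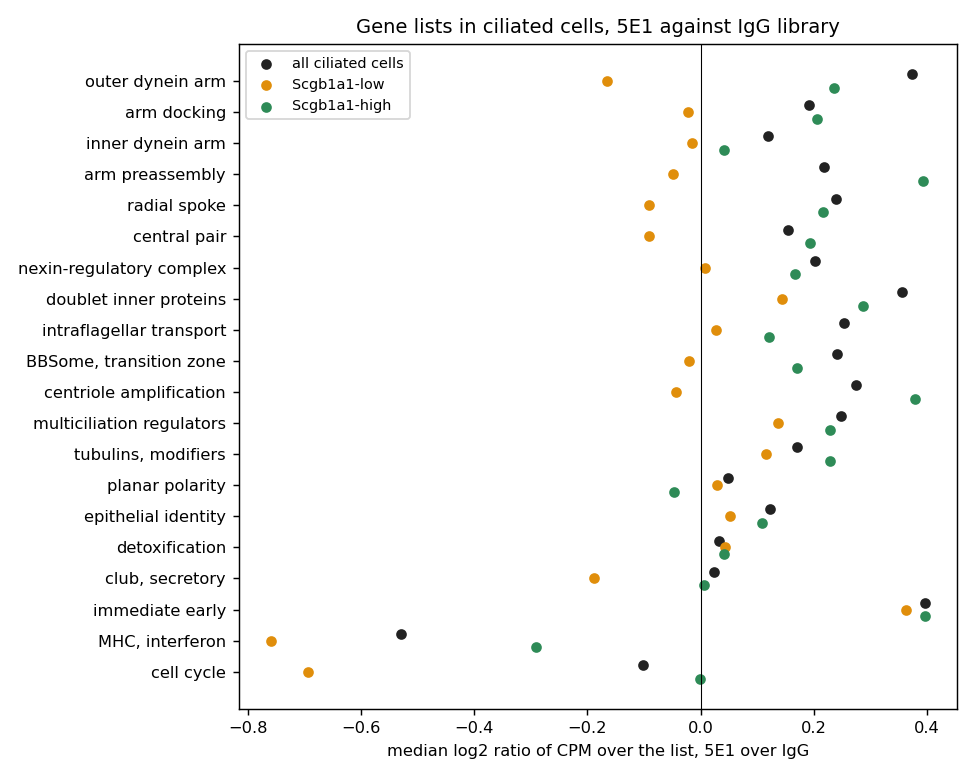
Median log2 ratio of CPM, 5E1 over IgG, for each gene list (rows) in all ciliated cells, in Scgb1a1-low and in Scgb1a1-high ciliated cells (point colours). Outer dynein arms lie at 0.37 over all ciliated cells, -0.16 in low cells and 0.24 in high cells. The immediate early list, which also holds heat shock chaperones, lies at 0.40 and the MHC and interferon list at -0.53 over all ciliated cells.

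Several single cilium genes were higher in the 5E1 library over all ciliated cells, each by less than 2-fold. Tppp3 had 5730 UMIs in the 5E1 library and 4829 in the IgG library, or 1942 and 1313 CPM, a ratio of 1.48 (1.42 to 1.54). Dynlrb2 stood at 713 and 500 CPM, a ratio of 1.42 (1.34 to 1.52), and Foxj1 at 340 and 287 CPM, a ratio of 1.18 (1.08 to 1.29). Both genes are in the rule that chose the cells. The 4 rule genes summed to 5560 and 5549 CPM in low cells and to 1382 and 1147 CPM in high cells. Rsph1, a radial spoke protein, stood at 200 and 138 CPM, a ratio of 1.45 (1.28 to 1.63). Cfap126, which positions basal bodies, stood at 298 and 227 CPM, a ratio of 1.32 (1.20 to 1.45). The higher values were in the 5E1 library in each case, with intervals above 1.

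Dynein heavy chains and other large cilium genes lay on both sides. Dnah5, the main heavy chain of outer arms, had 140 and 199 UMIs, or 47.5 and 54.1 CPM, a ratio of 0.88 (0.70 to 1.09), and Dnah9, another, stood at 74.6 and 69.9 CPM. Dnah11, a further outer arm heavy chain, had 78 and 63 UMIs, a ratio of 1.54 (1.09 to 2.19). Hydin, a very large central pair protein, stood at 34.9 and 35.1 CPM, a ratio of 0.995 (0.761 to 1.30). Dnah7a, an inner arm heavy chain with near-identical copies, was lowest of the axoneme genes at 30.2 and 41.9 CPM, a ratio of 0.72 (0.55 to 0.94). Armc4 was the only axoneme gene past 2-fold, with 90 and 53 UMIs, or 30.5 and 14.4 CPM, a ratio of 2.12 (1.49 to 3.03). It stood at 52.4 and 46.1 CPM in low cells and at 26.7 and 10.4 CPM in high cells.

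Immediate early genes, which are switched on within minutes of a stimulus, were listed together with heat shock chaperones. This mixed list was higher in the 5E1 library. Of its 23 genes tested, 19 were higher and 4 lower, where 57.7% of all genes were higher. The median log2 ratio of the list was 0.40, beside 0.05 for all genes. With the 5E1 library limited to the cells that had Xist UMIs and lacked Y-linked ones the median was 0.13. The median was 0.36 in low and 0.40 in high ciliated cells, 0.25 in the other cells of cluster 10 and 0.27 over all other annotated cells, so the shift was also present outside the ciliated cells. Fos, a component of the AP-1 factor, stood at 847 and 565 CPM, a log2 ratio of 0.58 with a ratio interval of 1.41 to 1.59, and Egr1, a zinc finger factor, at 347 and 220 CPM, a ratio of 1.58 (1.44 to 1.73). Atf3, a stress-induced factor, had the highest ratio of the list, at 126 and 77.0 CPM, 1.63 (1.40 to 1.91). Hspa1a, an inducible chaperone of the list, was its lowest gene at 8.81 and 20.4 CPM, a ratio of 0.43 (0.27 to 0.68).

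Genes of the major histocompatibility complex (MHC) and of the interferon response were lower in the 5E1 library. Of 17 such genes, 15 were lower and 2 higher, where 57.7% of all genes were higher, with a median of -0.53, and the medians were -0.54 in the other cells of cluster 10 and -0.51 over all other annotated cells. In low cells all 13 genes tested were lower, with a median of -0.76. B2m, the light chain of class I, stood at 169 and 210 CPM, a ratio of 0.80 (0.72 to 0.90). H2-Ab1, a class II chain of antigen-presenting cells, had 59 and 176 UMIs, a ratio of 0.42 (0.31 to 0.56), and of 0.54 (0.39 to 0.76) without the highest cell of each library. Cluster 4 held 843 and 1189 CPM of H2-Ab1. Class II transcripts at these levels can be free RNA, which was not tested.

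Across all genes 132 of 11264 (1.17%) were at least 2-fold higher in the ciliated cells of the 5E1 library and 210 (1.86%) at least 2-fold lower. In low cells these shares were 3.32% and 2.64%, and in high cells 1.04% and 2.41%. In all other annotated cells they were 1.7% and 2.55%. Low-count genes can pass such a fold by counting error alone, and these sets differ in UMIs, so the shares are given side by side without a comparison.

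Ratios were ranked over 2191 genes with at least 100 UMIs, 50 CPM in a library and the other limits given below. The highest of these were those of secretory genes and were read in the high cells. With the limit of 100 UMIs alone, 16 genes were at least 2-fold higher, Armc4 among them, and 30 at least 2-fold lower. Retnla, a secreted protein of the type 2 response, had 2643 and 1542 UMIs, or 896 and 419 CPM, a ratio of 2.14 (2.01 to 2.28). Chil1, a secreted chitinase-like protein, stood at 298 and 134 CPM, a ratio of 2.23 (1.99 to 2.49). Reg3g, an antimicrobial lectin, stood at 92.5 and 31.8 CPM, a ratio of 2.91 (2.33 to 3.64), but 1 cell of the 5E1 library held 140 of its 273 UMIs and 1 cell of the IgG library 54 of 117. The log2 ratio of Reg3g was 1.54, and 0.39 in cells with at least 20 UMIs of the rule genes. Without cells of very many UMIs or with markers of other types the log2 ratio of Chil1 was 0.37, beside 1.15, and that of Retnla 3.03, beside 1.10. That filter left 77 and 78 ciliated cells and removed mainly Scgb1a1-high cells. High cells held 98.6% of the Chil1 UMIs of ciliated cells and 99.3% of those of Retnla. These genes were low in low cells, where Retnla stood at 0.274 and 0.136 UMIs per cell, against 35.9 and 13.3 in high cells and 37.8 and 22.8 in the other cells of cluster 10.

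Agr2 stood at 59.7 and 28.3 CPM, a ratio of 2.11 (1.65 to 2.71), and Errfi1, a feedback inhibitor of the epidermal growth factor receptor, at 86.1 and 42.1 CPM, a ratio of 2.04 (1.67 to 2.51). Ccdc67 was also among the leading 10, at 70.2 and 40.2 CPM, a ratio of 1.74 (1.41 to 2.17), but at a log2 ratio of -0.0101 without cells of very many UMIs or with markers of other types. The remaining 4 were Ppp1r36, Cebpd, Cav2 and Krtap17-1, with ratios from 1.71 to 1.80. Krt15, a keratin of basal cells, was lowest of the ranked genes at 36.6 and 91.4 CPM, a ratio of 0.40 (0.32 to 0.50). Krt15 had 0 and 2 UMIs in low cells, and in the other cells of cluster 10 it had 1.46 and 1.34 UMIs per cell, while the high cells held 1.48 and 2.90. Fam13a followed in this ranking at a ratio of 0.64, with a log2 ratio of -0.65. That was -0.0110 without cells of very many UMIs or with markers of other types. H2-Ab1 and Hspa1a, given above with lower ratios than Fam13a, were under the 50 CPM that the ranking asks for.

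Hedgehog genes themselves were scarce in ciliated cells. Shh, the ligand that airway epithelium makes, had 65 and 101 UMIs, a ratio of 0.80 (0.58 to 1.11). Ptch1, the receptor and a target of the pathway, stood at 16.9 and 21.5 CPM, against 8.15 and 11.7 CPM in cluster 4. Hhip, a decoy receptor and target, had 5 and 42 UMIs, or 1.69 and 11.4 CPM, against 0.959 and 16.0 CPM in cluster 4, so its level did not exceed the background of free RNA in the IgG library. Gli1 had 0 and 1 UMIs and Foxl1, another target, 1 and 2. Smo, the signal transducer, stood at 14.2 and 22.6 CPM, a ratio of 0.63 (0.42 to 0.92). The 12 pathway genes tested did not include the targets Ptch1, Hhip, Gli1 and Foxl1. Of these 12 genes 6 were higher and 6 lower, with a median of -0.06. The 7 genes of the separate list of targets summed to 78 and 174 UMIs, or 26.4 and 47.3 CPM, and were thus lower in the 5E1 library. In each library this sum was below that of cluster 4, so it did not exceed the background of free RNA. The tdTomato reporter, tdTomWPREbGHpolyA in the files, stood at 133 and 124 CPM in ciliated cells, 68.5 and 113 CPM in cluster 4 and 416 and 604 CPM over all other annotated cells.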

How the data were processed

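Lungs of 3 pups per condition were pooled per the labels' protocols, which gave 1 droplet library per condition. The authors deposited raw UMI counts per gene and cell barcode, made with Cell Ranger 3.1.1 and mm10 per the submitters' processing notes, although the matrix headers name version 3.0.0. Other values of the deposited annotation table (clusters, libraries; headed by iCellR, with a header shifted by 1 column) gave each cell its cluster. Gene positions are those of GENCODE M21. UMIs were summed per library over ciliated cells. CPM, ratios and exact 95% intervals (Poisson, conditional binomial, Clopper-Pearson) were computed with Python 3.11.15, numpy 2.4.6, scipy 1.17.1, pandas 2.3.3 and matplotlib 3.10.9. A gene entered a comparison with at least 20 UMIs over both sides, and 0.5 UMIs were added for log2 ratios. The code was tested on simulated data. Samples were grouped by the treatment label, and no significance test was possible. No doublet caller was run, and no cell beyond the authors' own filter was left out.

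Ciliated cells and gene lists were chosen with earlier results of these data known. Named genes are list members with the highest CPM or the extreme ratios, and the 10 highest and 10 lowest ratios among genes with at least 100 UMIs and 50 CPM in a library. Genes under 5% of the CPM of their highest cluster were left out of that ranking. Also named are the genes highest over all other cells and over the other cells of cluster 10. Other genes were named after their values were seen. Alternatives tried were thresholds of 5 and 20 UMIs for the rule, other filters and scalings, cells thinned to 1000 UMIs, and subsets of cells.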

Additional observations from a re-analysis of the deposited data

Results flagged for a closer look

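Barcodes that the authors left out of their annotation also carried the 4 genes. At least 10 UMIs of Foxj1, Dynlrb2, 1110017D15Rik and Ccdc153 were found in 10 of 1065 such barcodes (0.939%, 0.451 to 1.72) of the 5E1 library and in 4 of 1512 (0.2646%, 0.0721 to 0.676) of the IgG library. For scale, a count of 0 would allow up to 0.282% and 0.198%, and the interval of the IgG library includes the latter. The ratio of the shares was 3.55, with an interval of 1.02 to 15.5. More than 10% mitochondrial UMIs were present in 9 of these 10 barcodes and 4 of these 4, with medians of 4134.5 and 2210.5 UMIs. Scgb1a1 exceeded 5% of UMIs in 2 and 0 of them. Whether they were damaged cells was not tested.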

How the results depend on the processing

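The median log2 ratio of the axoneme genes, 0.22 over all ciliated cells, was 0.13 with at least 20 UMIs of the rule genes. It reversed to -0.0418 in Scgb1a1-low cells, to -0.0413 without cells that had 10 or more UMIs of other types' markers or over 3 times the median UMIs, and to -0.22 when 5E1 cells were limited to those that had Xist UMIs and lacked Y-linked ones. The median of the list of immediate early genes and chaperones, 0.40, was 0.60 with cells thinned to 1000 UMIs and 0.13 with those Xist-only cells. The 132 genes at least 2-fold higher became 416 by mean CPM per cell, 16 with at least 100 UMIs per gene, 1389 with at least 1, and 211 in Scgb1a1-low cells. The 210 genes at least 2-fold lower became 465, 30 and 1889 under the first 3 of these, 44 after thinning, 120 without the high-UMI or mixed cells and 464 with the Xist-only cells. Fewer UMIs per gene widen counting error, so these counts depend on depth. Without the high-UMI or mixed cells the ratio of shares of ciliated cells was 1.41 and that of shares of cluster 10 was 1.35; leaving those cells out removes mainly Scgb1a1-high cells. Among named genes, Chil1 was at -1.15 in Scgb1a1-low cells on 6 and 13 UMIs, and without the high-UMI or mixed cells Ccdc67 was at -0.0101 and Grn at 0.33. The causes of the other changes were not tested. The remaining 47 values of main results and 182 of named genes kept their direction and size within the limits used, and 35 of named genes moved without a change of direction. No paired analysis was possible because each condition has 1 library. The Scgb1a1 subsets, the scaling without Scgb1a1 and the removal of cells with at least 0.5% of UMIs in other types' markers were chosen after the data were seen. Counting error and 1 library per condition limit every comparison of 5E1 with IgG.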

Other observations

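Airway genes outside the cilium also differed between the Scgb1a1-low and Scgb1a1-high ciliated cells. Antioxidant and detoxifying genes were lower in low cells relative to all genes, with medians of 0.13 and 0.10 beside 0.76 and 0.78, and they did not move together. Mgst1, a microsomal glutathione transferase, stood at 353 CPM in low cells of the 5E1 library and 233 CPM in those of the IgG library, against 1502 and 1253 CPM in high cells. Gsta4, another transferase, stood at 192 and 189 CPM against 439 and 440 CPM. Prdx5, a peroxiredoxin, was on the other side, at 741 and 763 CPM against 256 and 269 CPM.

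Genes of ion and fluid transport had medians of -0.62 and -0.43 in low over high cells. Cftr, the chloride channel, had 0 and 0 UMIs in low cells and 15 and 19 in high cells. Aqp5, a water channel, stood at 22.8 and 12.1 CPM against 154 and 138 CPM. Of the Notch genes, Jag1, a ligand, was higher in low cells at 121 and 117 CPM against 52.6 and 48.4 CPM. Notch3, a receptor, was lower at 6.84 and 7.29 CPM against 18.3 and 13.8 CPM, on 3 UMIs in the low cells of each library. Cell cycle genes had medians of -1.18 and -0.79.

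In the 5E1 library, where both sexes were present, 24 of the 67 ciliated cells with a Y-linked UMI were Scgb1a1-low, against 16 of the 40 that had Xist UMIs and lacked Y-linked ones. Of the 39 cells with neither, 33 were Scgb1a1-low. Cells with neither had a median of 5125 UMIs, against 22317 with a Y-linked UMI and 17116.5 with Xist UMIs only. A cell of few UMIs is less likely to show either, so these classes also differ in depth.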
